A study of Mus musculus with 26 samples.

Results

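The 15 primary osteosarcomas of a mouse model were ranked by, and the groups chosen by, the array intensity of Mki67, the gene of the proliferation marker Ki-67. The 5 tumours with the highest Mki67 intensity, called Mki67-high here, were compared with the 5 tumours with the lowest, called Mki67-low. The 2 groups hold 10 of the 26 samples of the series. The other 5 primary tumours are called middle, and they entered the fit to estimate the spread. The series also holds 4 secondary tumours, 4 osteosarcoma cell lines and 3 cultures of wild-type osteoblasts differentiated in vitro, each measured on its own array. Osteosarcoma is a bone cancer whose cells resemble osteoblasts, the cells that build bone. The labels name each primary tumour only as a primary osteosarcoma with a number, without its genotype, age, sex, treatment or anatomical site, so these are unknown here. Nothing in the labels says whether 2 tumours came from 1 animal, so p-values measure the spread between these samples. RNA was taken from bulk material, in which fewer cells of a type and less RNA per cell cannot be told apart.

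Ki-67 coats mitotic chromosomes, and its transcript and protein are present in dividing cells and low in resting ones. A dividing cell passes through G1, in which D-type and E-type cyclins with their kinases inactivate the retinoblastoma protein and free E2F transcription factors. It then copies its DNA in S phase, and in G2 and mitosis it condenses its chromosomes, attaches them to the spindle at kinetochores and divides. Genes of G1 and S phase are largely switched on by E2F, and genes of G2 and mitosis by B-Myb, FoxM1 and the MuvB complex, which binds a promoter element called the cell cycle genes homology region (CHR), often near CCAAT boxes bound by NF-Y.

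Promoters of 4 of the genes that were higher in Mki67-high tumours are shown so that these elements can be seen beside the expression values. They are the 4 with the largest differences among the called genes that have a promoter in the RefSeq table (build GRCm38.p6), and each runs from 100 bases before to 30 bases after the annotated start, 5′ to 3′ along the gene. Capitals mark 3 kinds of element, each searched on both strands. The CHR was searched as TTTGAA, with TTCGAA accepted as a variant form. The CCAAT box was searched by its own letters and reads ATTGG on the other strand, where the CHR reads TTCAAA. The E2F-type site was searched as TTTGGCG, with TTTCGCG accepted as a variant and with TTTCCCG accepted as well. No searched run of letters contains another.
Ccnb2 (chr9:70421525-70421654, minus strand): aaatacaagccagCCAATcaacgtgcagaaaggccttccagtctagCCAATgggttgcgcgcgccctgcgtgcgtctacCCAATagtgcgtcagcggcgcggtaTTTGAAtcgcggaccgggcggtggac
Top2a (chr11:99024160-99024289, minus strand): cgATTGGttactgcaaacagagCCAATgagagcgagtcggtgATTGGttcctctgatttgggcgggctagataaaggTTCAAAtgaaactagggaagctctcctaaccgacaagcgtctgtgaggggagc
Bub1 (chr2:127831830-127831959, minus strand): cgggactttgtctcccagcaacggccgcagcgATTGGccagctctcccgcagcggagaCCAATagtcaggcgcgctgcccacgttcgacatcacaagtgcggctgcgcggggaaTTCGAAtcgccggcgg
Melk (chr4:44300817-44300946, plus strand): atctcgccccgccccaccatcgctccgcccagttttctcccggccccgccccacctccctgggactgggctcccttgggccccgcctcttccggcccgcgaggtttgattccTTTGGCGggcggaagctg
The promoter of Ccnb2 holds 3 CCAAT boxes whose starts lie 33 bases apart, followed by a CHR, and that of Top2a holds 3 CCAAT boxes and a CHR. Bub1 has 2 CCAAT boxes and a CHR of the TTCGAA form, and Melk has an E2F-type site with no other searched element in this window. Over the whole RefSeq promoter window, 18 of the 26 called genes were counted. Called genes on a chromosome that was set aside were left out of this count, whether or not they had an entry. The background of all promoters in the table kept that chromosome. A CHR was present in 13 of these 18 (72.2%), against 19.2% of all 32851 promoters in the table, and a CCAAT box in 12 (66.7%), against 37.4% of all promoters. An E2F-type site was present in 4 (22.2%), against 5.58% of all promoters. The CHR and the CCAAT box together stood in 11 of the 18 (61.1%), against 7.52% of all promoters. These are letter matches, counted without a test.

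The arrays of the Mki67-high and Mki67-low tumours covered similar ranges of overall brightness. Array medians were 50.4 to 58.8 intensity units in Mki67-high tumours and 52.1 to 58.1 in Mki67-low tumours, and the ratio of the Gapdh 5′ to 3′ control probe sets, which falls with RNA degradation, was 0.656 to 1.03 in Mki67-high tumours and 0.736 to 1.01 in Mki67-low tumours. The ratio of the bioB and bioC hybridisation controls split the 15 arrays into a set of 8 (0.851 to 0.888) and a set of 7 (0.291 to 0.325), which the labels do not mention. These sets also differed in array median, 50.4 to 54.9 in the set of 8 and 55.5 to 58.8 in the set of 7. Their Gapdh ratios were 0.909 to 1.03 in the set of 8 and 0.656 to 0.845 in the set of 7. Of the Mki67-high tumours, 3 were in the set with the high control ratio and 2 in the set with the low one, and of the Mki67-low tumours 2 were in the high-ratio set and 3 in the low-ratio set. The highest correlation between any 2 primary tumour arrays was 0.977, so no array's values were entered again under another number. This cannot show whether 1 tumour or animal was measured under 2 numbers. On the defining genes of the osteoblast lineage, Mki67-high tumour 330 stood apart: its intensity of Sp7, the lineage's transcription factor, was 116, against 965 to 2033 in the other 9 compared tumours, and the bone and contractile genes below are given with and without it.

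The values that chose the groups are given as a description. Mki67 intensity was 1137, 963, 903, 783 and 678 in the Mki67-high tumours numbered 29, 66, 353, 182 and 330, and 423, 422, 335, 317 and 309 in the Mki67-low tumours numbered 188, 94, 87, 12 and 179. Values of each group are listed in these orders throughout. The middle tumours 119, 64, 176, 183 and 331 had 640.4, 635, 512, 485 and 446. The last Mki67-high tumour, at 678, thus stood just above tumour 119 at 640.4, and the first Mki67-low tumour, at 423, just below tumour 331 at 446. The ratio of the geometric means, Mki67-high over Mki67-low, was 2.46. The plot of Mki67 by tumour shows a gradual decline, with both group borders between tumours of close values.

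**Figure D1:**
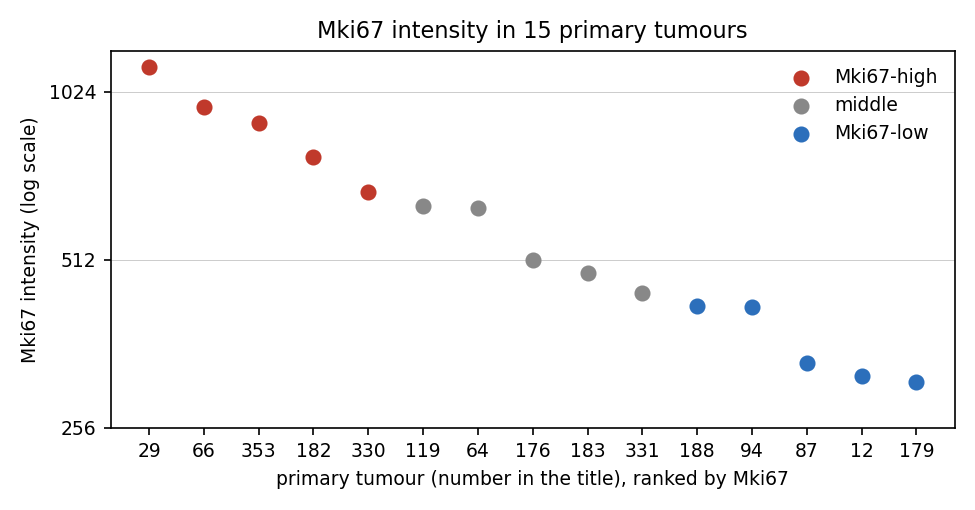
Mki67 intensity (vertical log axis, array units) in each of the 15 primary tumours, ranked from highest to lowest, with Mki67-high tumours in red, middle tumours in grey and Mki67-low tumours in blue. Intensity runs from 1137 in tumour 29 to 309 in tumour 179, and these values define the groups.

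Of the 26 genes called higher in Mki67-high tumours, 21 were members of the 4 mitotic lists (cyclins, kinases and regulators; kinetochore; spindle; chromosome structure) and 5 were in no list. They included the cyclins Ccnb2 and Ccna2, the mitotic kinases Plk1, Aurka, Aurkb and Bub1, parts of the kinetochore and spindle, and the chromosome proteins Top2a and Smc4. In all, 26 of the 12886 genes tested (0.202%) were higher at an adjusted p below 0.05 (limma with Benjamini-Hochberg adjustment), by 0.82 to 2.42 on the log2 scale, which is 1.77-fold to 5.34-fold. No gene was called lower by limma, although 281 genes (2.18%) were lower and 511 (3.97%) higher at an unadjusted p below 0.05. Over all genes tested, the median log2 difference was -0.01 and 48.7% of differences were above 0. Each of the 26 called genes had all 5 Mki67-high tumours above all 5 Mki67-low tumours, an arrangement that 1.13% of all genes showed, and each had its mean in the middle tumours between the means of the other groups. The genes were called for this same contrast on these arrays, so the separation describes them and adds no support.

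**Figure D2:**
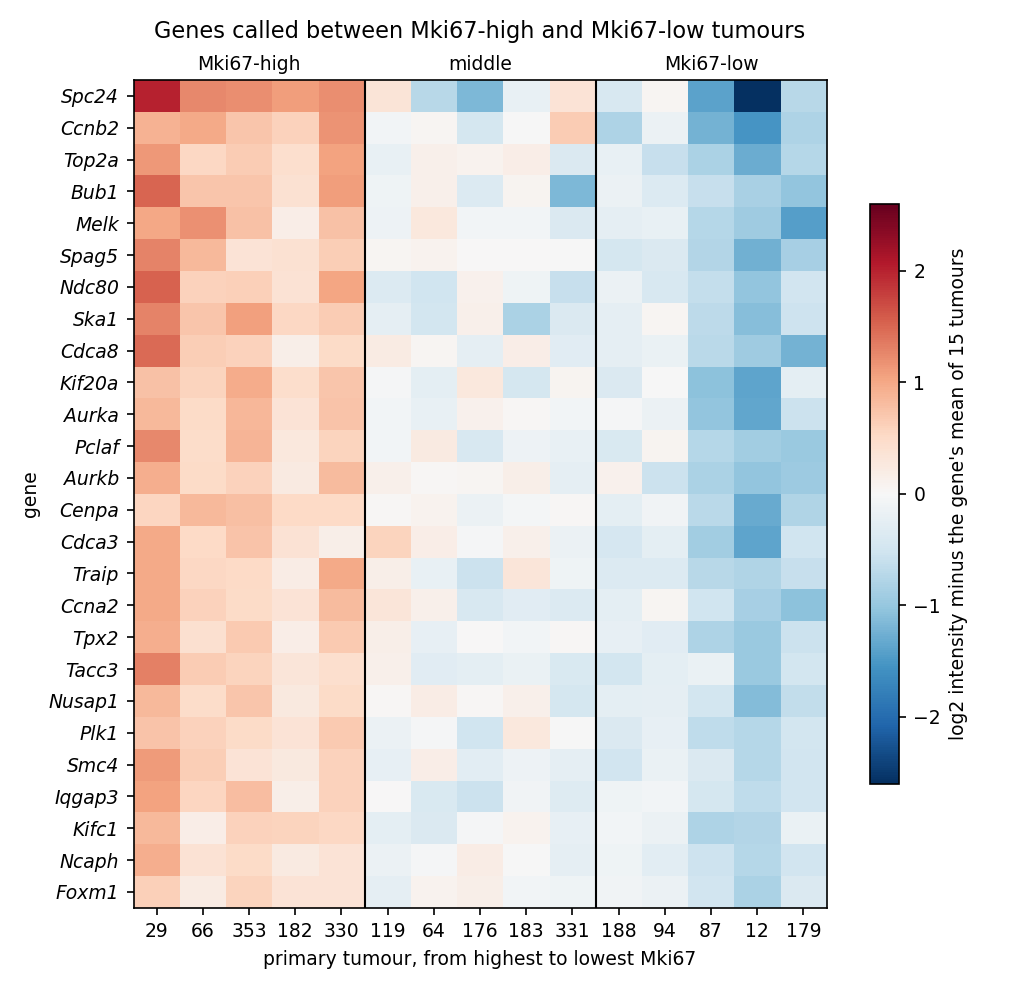
Log2 intensity of the 26 called genes (rows, from the largest to the smallest difference) in the 15 primary tumours (columns, from the highest to the lowest Mki67), each as the deviation from that gene's mean over the 15 tumours. The Mki67-high columns are red for all 26 genes, tumour 29 is the deepest red for most, and tumour 12 is the deepest blue for most.

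How many genes were called depended on single tumours and on the estimate of the spread. The count was 0 without tumour 66, 330 or 87, 3 without tumour 353, 4 without tumour 12, 4 without tumour 179, of which 1 was lower, 11 without tumour 29, of which 3 were lower, 26 without tumour 188, 33 without tumour 182 and 42 without tumour 94, of which 3 were lower. With only the 10 compared arrays in the fit, 0 genes were called by limma and 509 were higher at an unadjusted p below 0.05. All 26 called genes stayed higher at an unadjusted p below 0.05 without any 1 of the 10 tumours, and their median difference then lay between 1.11 and 1.38 on the log2 scale, against 1.27 with all of them. With the mean of each gene's probe sets, the smallest of the 26 differences was 0.43 in place of 0.82. Within the set of arrays with the high control ratio, all 26 were higher in the Mki67-high tumours by a median of 1.01, and within the low-ratio set all 26 were higher by a median of 1.47, with 0 genes called by limma in the high-ratio set and 1, none of the 26, in the low-ratio set. For each of the 26, all Mki67-high tumours lay above all Mki67-low tumours. Their direction in any part of these arrays was therefore fixed by the choice of genes, and only the sizes could vary. Small p-values were likewise favoured by that choice, so an unadjusted p below 0.05 for these genes adds no support.

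Among the regulators of mitotic entry, Ccnb2, a B-type cyclin that activates Cdk1, had the largest difference. Its intensity was 537, 567, 478, 434 and 645 in Mki67-high tumours and 166, 258, 123, 99 and 166 in Mki67-low tumours. The lowest Mki67-high value was well above the highest Mki67-low value, and the log2 difference was 1.77 ± 0.246 (SE), a 3.42-fold ratio with adjusted p = 0.0143 (limma). Ccna2, the cyclin of S phase and G2, had 1732, 1329, 1244, 1121 and 1559.8 in Mki67-high tumours and 739, 911, 615, 481 and 422 in Mki67-low tumours. Its groups did not overlap, and the log2 difference was 1.18 ± 0.22 (SE; limma adjusted p = 0.0474). Foxm1, a transcription factor that switches on mitotic genes, showed the smallest difference of the called genes, with 329, 246, 319, 273 and 273 in Mki67-high tumours against 199, 191, 150.0, 119.7 and 164 in Mki67-low tumours. It was higher by 0.82 ± 0.152 (SE; limma adjusted p = 0.0459), with the Mki67-high tumours within a narrow range. Cdk1 itself, the kinase these cyclins bind, missed the threshold, with 1776, 953, 1337, 994 and 1419 in Mki67-high tumours and 822, 774, 466, 359.9 and 863 in Mki67-low tumours. All Mki67-high values of Cdk1 were above all Mki67-low values, an arrangement of 1.13% of all genes. The difference was 1.02 (95% interval 0.44 to 1.61; limma adjusted p = 0.271). Mybl2, which encodes B-Myb, had a difference of 0.93 (95% interval 0.40 to 1.45; limma adjusted p = 0.261). One Mki67-low tumour, number 188 with 81.9, lay above the lowest Mki67-high tumour, number 182 with 73.3.

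In the list of mitotic cyclins, kinases and regulators, 9 of the 26 measured genes were called higher, against 0.202% of all genes. At an unadjusted p below 0.05, 25 were higher, against 3.97% of all genes. The median difference was 1.18, against -0.01 over all genes. Plk1, the Polo-like kinase that acts at centrosomes and kinetochores, had 400.3, 363, 337, 307 and 383 in Mki67-high tumours and 184, 205, 152, 143 and 171 in Mki67-low tumours. Both groups were tight and clearly separate, at 1.07 ± 0.155 (SE) on the log2 scale with limma adjusted p = 0.0172. Aurka, the Aurora kinase of spindle poles, had 584, 459, 597, 417 and 545 in Mki67-high tumours and 322, 294, 161, 128 and 220.3 in Mki67-low tumours. Tumours 188 and 94 were close to the middle tumours for Aurka and tumours 87 and 12 far below them, and the difference was 1.28 ± 0.223 (SE; limma adjusted p = 0.0323). Aurkb, the Aurora kinase of the chromosomal passenger complex, had 203, 149, 159, 123 and 187 in Mki67-high tumours and 113, 71.4, 59.7, 51.7 and 54.3 in Mki67-low tumours, and Cdca8, which encodes the passenger subunit borealin, had 1614, 908, 881, 648 and 818 in Mki67-high tumours and 499, 521, 358, 306 and 249 in Mki67-low tumours. For Aurkb tumour 188 came near the lowest Mki67-high tumour, number 182, whereas the other Mki67-low tumours lay far below. The log2 differences were 1.27 ± 0.205 for Aurkb (limma adjusted p = 0.0253) and 1.32 ± 0.249 for Cdca8 (limma adjusted p = 0.049; SE each). Bub1, a kinase of the spindle checkpoint, had 389.8, 223, 226, 179 and 287 in Mki67-high tumours and 122, 107, 89.4, 75.7 and 66.8 in Mki67-low tumours, with a difference of 1.48 ± 0.267 (SE; limma adjusted p = 0.0401). Melk, a kinase made in dividing cells, had 229, 257, 193, 128 and 191 in Mki67-high tumours and 96.3, 98.8, 67.9, 59.6 and 42.3 in Mki67-low tumours, and differed by 1.48 ± 0.241 (SE; limma adjusted p = 0.0253).

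The kinetochore, the protein structure that ties a chromosome to the spindle, gave 3 called genes of 15 measured, against 0.202% of all genes. The median difference over the list was 1.25. Spc24, a subunit of the Ndc80 complex, had 591, 349, 343, 315 and 341 in Mki67-high tumours and 111, 153, 56.1, 20.3 and 89.7 in Mki67-low tumours. This was the largest difference of any called gene, 2.42 ± 0.459 (SE; limma adjusted p = 0.0494), with a 5.34-fold ratio, and the Mki67-low tumours were widely spread, with tumour 12 near the dim end of the array. Ndc80, another subunit of that complex, had 257, 134, 136, 114 and 179 in Mki67-high tumours and 79.5, 66.5, 57.2, 43.6 and 62.4 in Mki67-low tumours, a difference of 1.37 ± 0.226 (SE; limma adjusted p = 0.0273). Cenpa, the histone variant that marks the centromere, had 843, 1035, 987, 823 and 825 in Mki67-high tumours and 483, 538, 352, 233 and 335 in Mki67-low tumours. The Mki67-high tumours were nearly level for Cenpa, with an SD of 0.16 on the log2 scale, against 0.48 in the Mki67-low tumours, and the difference was 1.27 ± 0.19 (SE; limma adjusted p = 0.0208). Ska1, which holds kinetochores on microtubules and was in none of the lists, had 265, 180.1, 229, 159.7 and 173 in Mki67-high tumours and 93, 113, 68.1, 50.5 and 75.5 in Mki67-low tumours, with a difference of 1.36 ± 0.228 (SE; limma adjusted p = 0.031).

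Spindle proteins and motors gave 6 called genes of 23 measured, against 0.202% of all genes, and had a list median of 1.02. Spag5, which encodes the spindle protein astrin, had the smallest p of all genes, with 144, 105, 75, 76.5 and 91.4 in Mki67-high tumours and 42.6, 45.2, 34.3, 24.7 and 32.2 in Mki67-low tumours. Its groups lay far apart relative to their spread, at 1.45 ± 0.194 (SE; limma adjusted p = 0.0143), although its probe set was dim in all tumours. Tpx2, which activates Aurka on the spindle, had 682, 471, 569, 396 and 567 in Mki67-high tumours and 303, 289, 203, 182 and 240.3 in Mki67-low tumours. No Mki67-low tumour reached the lowest Mki67-high tumour, and the difference was 1.14 ± 0.174 (SE; limma adjusted p = 0.0209). Nusap1, a microtubule-binding protein of the spindle, had 556, 433, 515, 369 and 441 in Mki67-high tumours and 262, 265, 222, 143 and 198 in Mki67-low tumours, and differed by 1.11 ± 0.188 (SE; limma adjusted p = 0.0318). Kif20a, a kinesin of cytokinesis, had 206, 181, 238, 166 and 199.7 in Mki67-high tumours and 93.5, 121, 57.8, 46.7 and 101 in Mki67-low tumours, and differed by 1.32 ± 0.24 (SE; limma adjusted p = 0.0406). Tacc3, a spindle protein phosphorylated by Aurora A, and Kifc1, a minus-end-directed kinesin, were also called, with differences of 1.13 (limma adjusted p = 0.0323) and 0.94 (limma adjusted p = 0.049).

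Proteins that shape chromosomes gave 3 called genes of 17 measured, against 0.202% of all genes, and the list had a lower median, 0.60. Top2a, the topoisomerase that untangles DNA before chromosomes part, had 1317, 879, 946, 815 and 1238 in Mki67-high tumours and 528, 399, 339.5, 245 and 359 in Mki67-low tumours. Tumours 29 and 330 were the highest and tumour 12 the lowest, and the difference was 1.49 ± 0.205 (SE; limma adjusted p = 0.0143). Smc4, the core ATPase of condensin, had 2480.2, 1793, 1480.4, 1373 and 1739 in Mki67-high tumours and 811, 1023, 885, 689 and 814 in Mki67-low tumours. The lowest Mki67-high tumour, number 182, exceeded the highest Mki67-low tumour, number 94, and the difference was 1.05 ± 0.167 (SE; limma adjusted p = 0.0253). Ncaph, a condensin I subunit, had 668, 452, 486, 405 and 440.1 in Mki67-high tumours and 318, 285, 239, 206 and 246 in Mki67-low tumours, and differed by 0.91 ± 0.16 (SE; limma adjusted p = 0.0323). Taken as 1 group, the 4 mitotic lists held 81 measured genes, of which 21 were called higher, against 0.202% of all genes. At an unadjusted p below 0.05, 67 were higher, against 3.97% of all genes. A difference above 0 was found for 79, against 48.7% of all genes, and the median was 1.04.

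Besides Ska1, 4 called genes stood in none of the lists. Pclaf, a partner of the replication clamp PCNA, had 1285, 757, 1000.1, 661 and 816 in Mki67-high tumours and 415, 569.6, 325, 292 and 279 in Mki67-low tumours, with a difference of 1.28 ± 0.221 (SE; limma adjusted p = 0.0323). Traip, a ubiquitin ligase that acts at stalled replication forks, was dim, with 87.5, 64.9, 63.6, 51 and 87.9 in Mki67-high tumours and 35, 34.8, 26.9, 25.9 and 29.3 in Mki67-low tumours, and differed by 1.21 ± 0.193 (SE; limma adjusted p = 0.0253). For Pclaf tumour 179 was the lowest of all 15 tumours, and for Traip tumour 12. No Mki67-low tumour was above the filter intensity of 52.6 for Traip, and of the middle tumours only tumour 183 was. Cdca3 differed by 1.25 (limma adjusted p = 0.039), and Iqgap3, a scaffold of the IQGAP family, by 0.99 (limma adjusted p = 0.0406). In Cdca3, the middle tumour 119 with 928 exceeded 3 Mki67-high tumours.

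The same few tumours were the highest or lowest for most called genes. Every called gene had all Mki67-high tumours above all Mki67-low tumours, so these extremes describe the genes and add no support. Of the 26 called genes, 20 were highest of all 15 tumours in tumour 29 and 2 each in tumours 66, 353 and 330, while 20 were lowest in tumour 12, 4 in tumour 179 and 1 each in tumours 87 and 331. The mean log2 level of the 26 genes was 8.91, 8.46, 8.53, 8.21 and 8.54 in the Mki67-high tumours and 7.57, 7.64, 7.12, 6.75 and 7.16 in the Mki67-low tumours. Tumours 188 and 94 were thus near the middle tumours, which ran from 7.64 to 7.84, and tumours 87, 12 and 179 were well below them. As a description, the correlation of each called gene with Mki67 over the 15 tumours was 0.807 to 0.945. The genes whose log2 levels followed Mki67 most closely over these 15 tumours, which share arrays and scaling, were Spag5 (r = 0.945), Cdca8 (0.936), Melk (0.935), Pclaf (0.933) and Nusap1 (0.930). Cdc20, the activator of the anaphase-promoting complex, came next (0.929) without being called, at 0.81 (limma adjusted p = 0.104).

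Over the S phase lists of replication licensing, DNA synthesis and nucleotide supply, and repair by homologous recombination, 54 genes were measured. All 54 had a difference above 0, with a median of 0.52, 31 were higher at an unadjusted p below 0.05 (3.97% of all genes), and 0 passed the adjusted threshold of limma. Pole, the catalytic subunit of the leading-strand polymerase epsilon, came nearest, with 334, 158, 214, 168 and 219 in Mki67-high tumours and 139, 99.4, 103, 81.8 and 86 in Mki67-low tumours. Its groups did not overlap, an arrangement of 1.13% of all genes, and the difference was 1.08 ± 0.208 (SE; limma adjusted p = 0.0553). Rrm2, the small subunit of ribonucleotide reductase, had 1857, 1496, 1543, 3324 and 1515 in Mki67-high tumours and 830.4, 928, 629, 708 and 700.3 in Mki67-low tumours. Tumour 182, which was the lowest Mki67-high tumour for most of the called genes, was by far the highest for Rrm2, and the difference was 1.30 ± 0.275 (SE; limma adjusted p = 0.098).

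The MCM helicase opens DNA at replication origins, and none of its genes was called. Mcm5 had 1560.4, 679.9, 462, 711 and 518 in Mki67-high tumours and 475, 223, 289, 265 and 328 in Mki67-low tumours, with a difference of 1.22 (95% interval 0.46 to 1.97; limma adjusted p = 0.343). Mcm6 differed by 0.83 (limma adjusted p = 0.298), and Mcm2 by 0.51 (limma adjusted p = 0.627). For Mcm5 tumour 29 had more than any other primary tumour and tumour 188, a Mki67-low tumour, had more than tumour 353. Dbf4, the activator of the kinase that fires origins, differed by 0.81 (limma adjusted p = 0.209), and Gins1, a subunit of the replicative helicase, by 0.51 (limma adjusted p = 0.261). Pcna, the replication clamp, had 3724, 1662, 2396, 2032 and 2692 in Mki67-high tumours and 2277, 1280.5, 1794, 1999 and 2043 in Mki67-low tumours. Its groups overlapped widely, with a difference of 0.38 (95% interval -0.18 to 0.95). Among repair genes, Rad54l differed by 1.19 (limma adjusted p = 0.276), Exo1 by 1.04 (limma adjusted p = 0.298) and Rad51ap1 by 0.60 (limma adjusted p = 0.347).

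The list of G1 cyclins, their kinases and E2F factors showed no such shift: 11 of 20 genes had a difference above 0, the median was 0.01, and 0 were called by limma, with 1 higher at an unadjusted p below 0.05. That gene was E2f8, an atypical E2F, at 0.80 (limma adjusted p = 0.607). E2f1, the activating E2F factor, had 651, 530.3, 613, 571 and 683 in Mki67-high tumours and 629, 632, 581, 635 and 559 in Mki67-low tumours. The groups were interleaved, and the interval of the difference was narrow, -0.23 to 0.24 on the log2 scale around 0.00. The E2f1 probe set varied little in any group, with SDs of 0.15, 0.10 and 0.08 in Mki67-high, middle and Mki67-low tumours. The narrow interval describes this probe set only. Ccne1, the cyclin of the G1 to S transition, had 770.2, 563, 693, 583 and 674 in Mki67-high tumours and 759.6, 1026, 683, 771 and 697 in Mki67-low tumours, with a difference of -0.26 (95% interval -0.59 to 0.08). Ccnd1, the G1 cyclin that responds to growth signals, had 501, 781, 730.5, 2031 and 473 in Mki67-high tumours and 1500.2, 269, 2307, 2790.0 and 1137 in Mki67-low tumours. It varied widely within both groups, and the interval of its difference, -1.89 to 0.52, covers shifts in either direction. Rb1, which encodes the retinoblastoma protein, had 334, 213, 201, 154 and 99.3 in Mki67-high tumours and 191, 158, 195, 218 and 156 in Mki67-low tumours, with a difference of 0.03 (95% interval -0.60 to 0.65) at a probe set whose position within the gene is not known here. Its relative Rbl1 differed by 0.20 (95% interval -0.30 to 0.69).

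Inhibitors of cyclin-dependent kinases were likewise uncalled, with 3 of 7 differences above 0, a median of -0.05, and 0 genes past even an unadjusted p of 0.05 in limma. Cdkn1a, which encodes p21, had 1458, 584, 531, 957 and 164 in Mki67-high tumours and 1501, 609, 742, 749.7 and 1105 in Mki67-low tumours. Tumour 29, with the highest Mki67 of all, was among the highest for Cdkn1a, and tumour 330 was the lowest. The difference was -0.60 (95% interval -1.67 to 0.47). Cdkn2a, the gene of p16 and p19ARF, had 1314, 1059, 448, 222 and 502 in Mki67-high tumours and 489, 673, 857, 992 and 291 in Mki67-low tumours. Its groups overlapped throughout, and its interval ran from -1.18 to 1.08. Cdkn1b differed by 0.28 (95% interval -0.26 to 0.82), Cdkn2c by 0.58 (95% interval -0.16 to 1.32) and Cdkn1c by -0.37 (95% interval -3.28 to 2.55).

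**Figure D3:**
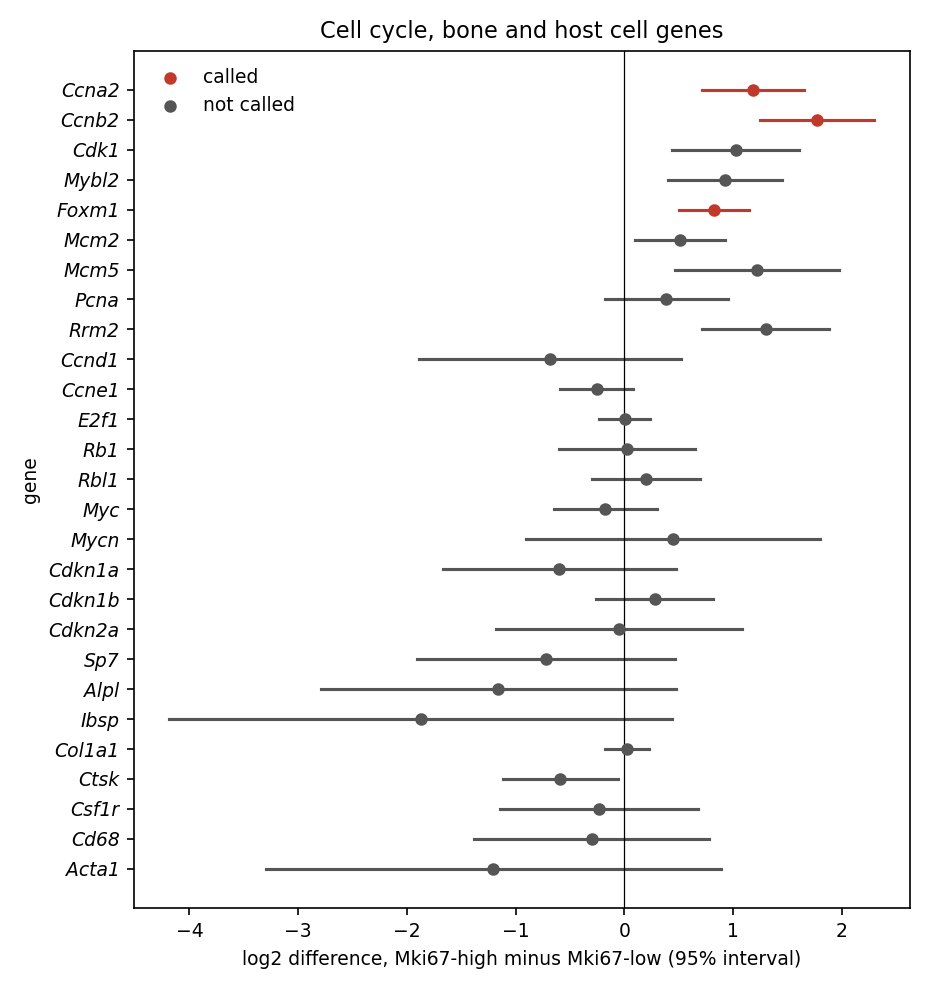
Log2 difference, Mki67-high minus Mki67-low primary tumours, with its 95% interval (horizontal axis) for chosen genes of the cell cycle, of bone and of host cells (rows), called genes in red and others in grey. Ccna2, Ccnb2 and Foxm1 are the called genes, the intervals of E2f1 and Col1a1 span 0, with Col1a1 near the top of the arrays' scale, and those of Ibsp and Acta1 are the widest.

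No growth gene was called. Myc, the growth-promoting transcription factor, had 177, 285, 226, 223 and 167 in Mki67-high tumours and 275, 208, 313, 246 and 178 in Mki67-low tumours, and its difference was -0.18 (95% interval -0.65 to 0.29). Mycn, its relative, had 191, 155, 114, 319.9 and 28.2 in Mki67-high tumours and 131, 109, 42.4, 74.7 and 143 in Mki67-low tumours, and tumour 330 held the lowest value and tumour 182 the highest. Its interval was -0.90 to 1.80. In the list of ribosome biogenesis genes and Myc targets, 19 of 21 differences were above 0 with a median of 0.30, and 0 genes were called by limma, with 3 higher at an unadjusted p below 0.05: Odc1, the enzyme that starts polyamine synthesis, at 0.90 (limma adjusted p = 0.421), Nolc1 at 0.75 (limma adjusted p = 0.527) and Ppan at 0.74 (limma adjusted p = 0.607). Cytosolic ribosomal proteins had a median of 0.12 over 14 genes, and respiratory chain subunits a median of 0.14 over 19 genes with 18 above 0. None of either list was called by limma, with 0 of the 14 and 4 of the 19 higher at an unadjusted p below 0.05 (3.97% of all genes).

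The hypoxia and glycolysis list had a median of -0.37 over 17 genes, of which 14 had a difference below 0, 0 were called by limma and 2 were lower at an unadjusted p below 0.05 (2.18% of all genes). Vegfa, the blood vessel growth factor, had 208, 225, 204, 138 and 201 in Mki67-high tumours and 555, 224, 398, 677 and 328 in Mki67-low tumours. Only tumour 66, with 225, and tumour 94, with 224, broke the separation of the groups, and the difference was -1.07 ± 0.273 (SE; limma adjusted p = 0.227). Ndrg1, a gene induced by low oxygen, had 639.6, 444, 961, 589.6 and 249 in Mki67-high tumours and 1848, 1055, 1364, 1258 and 1166 in Mki67-low tumours. All Mki67-high values were below all Mki67-low values, an arrangement of 0.264% of all genes, and the difference was -1.32 ± 0.354 (SE; limma adjusted p = 0.271).

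Targets of p53 had a median of -0.22 over 18 genes, with 15 below 0 and 0 called by limma. At an unadjusted p below 0.05, 2 were lower (2.18% of all genes). Over all genes, 48.7% of differences were above 0. Gadd45a, a growth arrest gene, had 69.8, 38.8, 21.6, 80.8 and 42.7 in Mki67-high tumours and 119, 83.6, 127, 298 and 93.3 in Mki67-low tumours. Every Mki67-high value was below every Mki67-low value, an arrangement of 0.264% of all genes, and the difference was -1.49 ± 0.406 (SE; limma adjusted p = 0.278). Mdm2, the ubiquitin ligase of p53, differed by -0.25 (95% interval -0.54 to 0.04). Immediate early genes respond within minutes to growth signals and to handling of tissue. Their median was -0.51, with 15 of 16 below 0 and 0 called by limma. At an unadjusted p below 0.05, 5 were lower (2.18% of all genes). Dusp1, a phosphatase of that class, had 772, 491, 294, 477 and 271 in Mki67-high tumours and 1174, 509, 2942, 1221 and 553 in Mki67-low tumours, and tumour 29 alone among the Mki67-high tumours exceeded tumours 94 and 179. Its difference was -1.27 ± 0.462 (SE; limma adjusted p = 0.588).

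The interferon list had a median of 0.70 over 16 genes, 15 of them above 0. In this list, 2 genes were higher at an unadjusted p below 0.05 (3.97% of all genes) and 0 were called by limma. Its mean log2 level was 7.92, 8.67, 6.88, 6.32 and 8.58 in Mki67-high tumours and 6.87, 6.71, 7.44, 7.21 and 6.52 in Mki67-low tumours. Tumours 29, 66 and 330 were above every Mki67-low tumour, and tumour 182 was below all of them. Bst2, the antiviral protein tetherin, had 193, 346, 70.1, 55.3 and 197 in Mki67-high tumours and 54.9, 27.4, 69.3, 51.8 and 39.7 in Mki67-low tumours, a difference of 1.58 ± 0.472 (SE; limma adjusted p = 0.37). Genes of MHC class II had a median of -0.08 over 6 genes with 0 called by limma and 0 at an unadjusted p below 0.05. The Wnt pathway list had a median of -0.33 over 15 genes with 0 called by limma and 1 lower at an unadjusted p below 0.05, Sfrp4, a secreted Wnt antagonist, at -0.65 (limma adjusted p = 0.785).

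**Figure D4:**
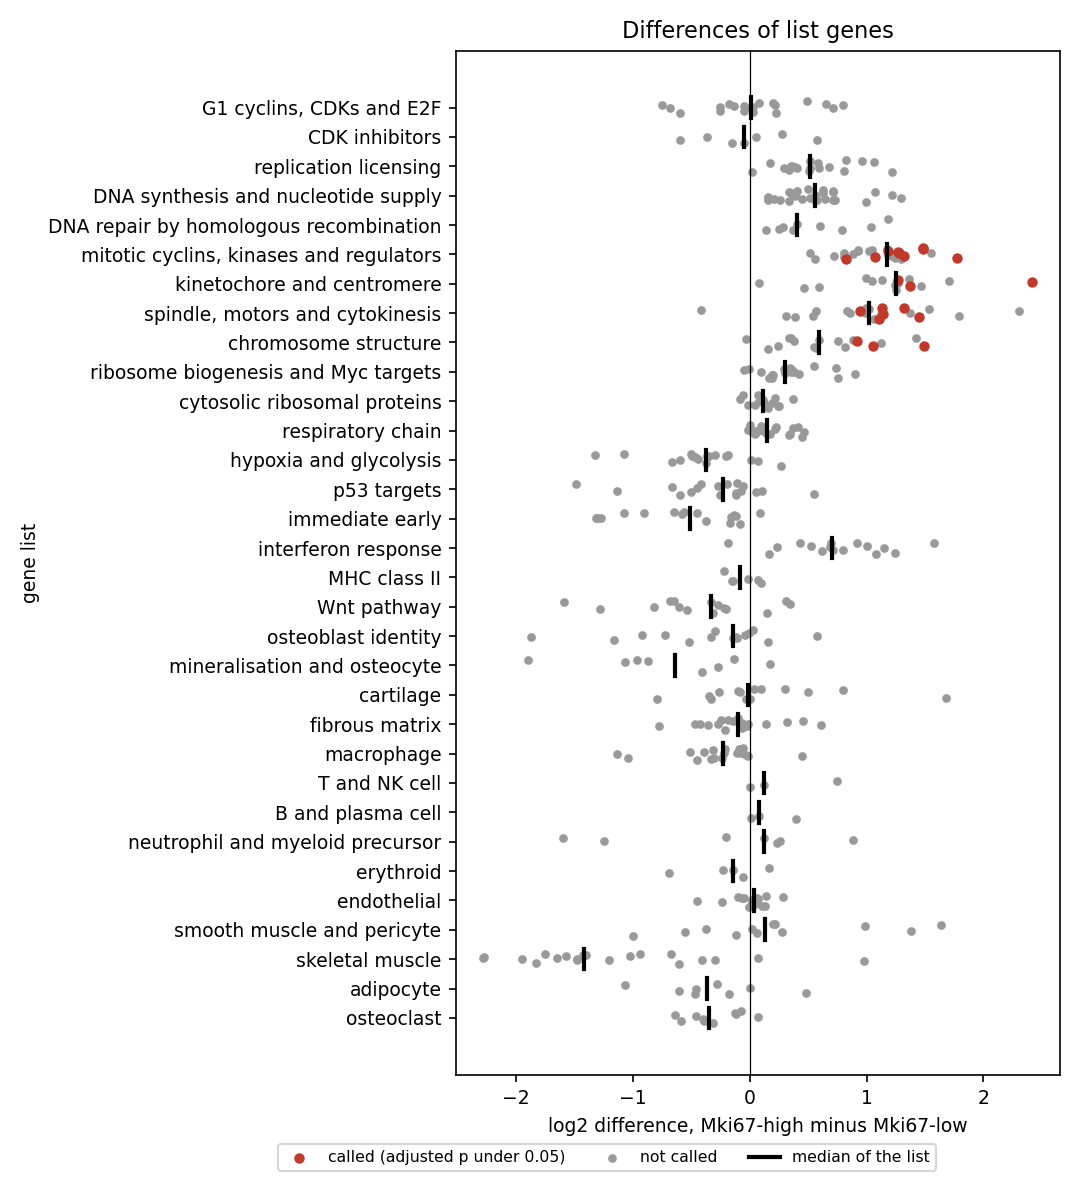
Log2 difference, Mki67-high minus Mki67-low primary tumours (horizontal axis), of every measured gene of each list (rows), called genes in red, other genes in grey, and the median of the list as a black bar. Called genes stand only in the 4 mitotic lists, whose medians run from 0.60 to 1.25, and the skeletal muscle list has the lowest median, -1.41.

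No bone gene was called, and 1 tumour stood apart from the rest. Col1a1, the main collagen of bone, had 16428, 15359.9, 16366, 16812 and 15626 in Mki67-high tumours and 16459, 16084, 15666, 15898 and 15095 in Mki67-low tumours, near the top of the scale of the arrays. No likeness or difference is read from a probe set at that level. Sp7, the transcription factor osterix that defines the osteoblast lineage, had 1538, 1448, 1421, 965 and 116 in Mki67-high tumours and 1264, 998, 1197, 1414 and 2033 in Mki67-low tumours. Tumour 330 was far below the other 9, and the same held for Alpl, the alkaline phosphatase of osteoblasts, with 6965, 6196, 3971, 3565 and 171 in Mki67-high tumours and 5571, 3913, 6564, 4964 and 8146 in Mki67-low tumours. For Ibsp, bone sialoprotein, the values were 3658, 1512, 1851, 5826 and 26.6 in Mki67-high tumours and 4779, 1568, 6145, 3582 and 6369 in Mki67-low tumours. The log2 difference of Ibsp was -1.87 (95% interval -4.18 to 0.44) and -0.53 without tumour 330; that of Alpl was -1.16 and -0.19 without it; that of Sp7 was -0.72 and -0.02 without it. The mean log2 level of the osteoblast identity list was 10.89, 10.82, 10.67, 10.71 and 8.30 in Mki67-high tumours and 10.51, 10.30, 10.75, 10.61 and 11.05 in Mki67-low tumours, lowest in tumour 330. Of the 15 genes of that list, 0 were called by limma and 0 passed an unadjusted p of 0.05, with a median of -0.14, and the mineralisation list had a median of -0.64 over 8 genes, with 1 lower at an unadjusted p below 0.05. That gene was Tnfrsf11b, the decoy receptor osteoprotegerin, at -1.90 (limma adjusted p = 0.678), and -1.02 without tumour 330, whose value was at the floor of the scale.

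Tumour 330 was also the highest for contractile genes. Acta2, smooth muscle actin, had 695, 955, 1026, 1663 and 5106 in Mki67-high tumours and 1095, 279, 637, 418 and 591 in Mki67-low tumours, and Tagln, which encodes transgelin, had 88.9, 167, 405, 198 and 3525 in Mki67-high tumours and 149.7, 39.5, 203, 86.4 and 138 in Mki67-low tumours. The difference of Acta2 was 1.38 (limma adjusted p = 0.665) and 0.92 without tumour 330, and that of Tagln was 1.64 (limma adjusted p = 0.819) and 0.79 without it. The list of smooth muscle and pericyte markers had a median of 0.13 over 12 genes, with 0 called by limma and 1 higher at an unadjusted p below 0.05. Cartilage genes had a median of -0.01 over 14 genes and fibrous matrix genes a median of -0.10 over 19 genes, with 0 called by limma in either. Of these, Fn1, fibronectin, was the 1 gene at an unadjusted p below 0.05, with 7037, 5017, 7678, 6405 and 5422 in Mki67-high tumours and 10668, 9588, 8629, 7788 and 6895 in Mki67-low tumours, a difference of -0.47 (limma adjusted p = 0.527).

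Markers of host cells are given because the tumours were bulk tissue. Skeletal muscle markers differed most, with a median of -1.41 over 20 genes and 18 below 0, and 0 called by limma or at an unadjusted p below 0.05. Their mean log2 level was 10.15, 6.39, 6.74, 9.71 and 5.29 in Mki67-high tumours and 7.48, 8.43, 8.03, 10.04 and 10.09 in Mki67-low tumours. Tumours 29 and 182 were close to the richest Mki67-low tumours, and tumours 66, 353 and 330 had less than any Mki67-low tumour. Acta1, the actin of muscle fibres, had 9593, 376, 399, 5427 and 276 in Mki67-high tumours and 987, 2079, 1849, 4995 and 7458 in Mki67-low tumours. With the mean of the muscle list as a covariate, 7 genes were called, 5 of them among the 26, and all 26 stayed higher at an unadjusted p below 0.05. The 26 were chosen on these same arrays, so their staying higher adds no support. The part of muscle tissue in the result was not tested further.

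Macrophage markers had a median of -0.23 over 18 genes, 17 of them below 0, with 0 called by limma or at an unadjusted p below 0.05. Their mean log2 level was 9.51, 8.85, 8.51, 9.31 and 9.15 in Mki67-high tumours and 9.30, 8.02, 10.14, 10.20 and 9.10 in Mki67-low tumours, and tumours 87 and 12 held the highest means. Csf1r, the receptor of macrophage colony-stimulating factor, had 3132, 1444, 1256, 2560.3 and 1526 in Mki67-high tumours and 1535, 1149.8, 3749, 4849.6 and 1572 in Mki67-low tumours, and differed by -0.24 (95% interval -1.15 to 0.67). With the macrophage mean as a covariate, 13 genes were called, all among the 26. Osteoclast markers had a median of -0.35 over 10 genes, 9 of them below 0, with 0 called by limma and 1 lower at an unadjusted p below 0.05. Ctsk, the collagen-degrading cathepsin of osteoclasts, had 2392, 2572, 3994, 3461 and 3164 in Mki67-high tumours and 2977, 5972, 4011, 4748 and 6157 in Mki67-low tumours, a difference of -0.59 (limma adjusted p = 0.717). Medians were 0.04 for 16 endothelial markers, 0.12 for 7 neutrophil and myeloid precursor markers, -0.15 for 5 erythroid markers and -0.37 for 8 adipocyte markers. Only 3 of 15 T and NK cell markers and 3 of 11 B and plasma cell markers passed the filter on dim probe sets, with medians of 0.12 and 0.08. Of the 7 neutrophil and myeloid precursor markers, 4 had a difference above 0, 0 were called by limma and 1 was higher at an unadjusted p below 0.05. That gene was Mpo, the myeloperoxidase of neutrophil granules, with a mean log2 level of 8.49 ± 0.38 in Mki67-high tumours and 7.60 ± 0.60 in Mki67-low tumours (SD, n = 5 each) and a difference of 0.88 (limma adjusted p = 0.514). S100a8, another neutrophil gene, differed by -1.60 (limma adjusted p = 0.919) and reached 7950.4 in tumour 188 and 385 in tumour 29, against 157 or less in the other 8 compared tumours.

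Among the genes that were lower in Mki67-high tumours, none of which passed the adjusted threshold, the smallest adjusted p was 0.104 (limma). It belonged to Rab20, a small GTPase of vesicle traffic, with 4.1, 8.51, 19.4, 7.96 and 11.9 in Mki67-high tumours and 103, 39.6, 143, 81.4 and 16.2 in Mki67-low tumours. In 4 of the 5 Mki67-high tumours Rab20 was at or under the floor intensity of 12.5, where values were raised to that floor before the difference of -2.14 was taken. Among the 15 primary tumours, only Mki67-low tumours 188, 87 and 12 were above the filter intensity of 52.6 for Rab20. It may thus have passed the filter only through the group where it was high. Igfbp7, a secreted binding protein of insulin-like growth factors, had 5459.9, 3564, 3942, 3619.6 and 2275 in Mki67-high tumours and 5353, 6379, 7793, 9114 and 6418 in Mki67-low tumours. Tumour 29 was the 1 Mki67-high tumour above the lowest Mki67-low tumour, and the difference was -0.92 ± 0.203 (SE; limma adjusted p = 0.114). Scara5, a ferritin receptor, had 556, 146, 201, 206 and 113 in Mki67-high tumours and 434, 679, 970.3, 843 and 385 in Mki67-low tumours, with a difference of -1.59 (limma adjusted p = 0.177). Lgals3, which encodes galectin-3, had 1571, 1364, 2125, 1501 and 1360.1 in Mki67-high tumours and 3791, 2961, 3893, 2308 and 3241 in Mki67-low tumours. Its groups did not overlap, an arrangement of 0.264% of all genes, and the difference was -1.03 ± 0.262 (SE; limma adjusted p = 0.227). Rnh1, the ribonuclease inhibitor, followed Mki67 most inversely over the 15 tumours (r = -0.787, as a description), with 1222, 1302, 1626, 1326 and 1401 in Mki67-high tumours and 2225, 1593, 1905, 2170.0 and 2628 in Mki67-low tumours and a difference of -0.60 (limma adjusted p = 0.17).

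On the arrays that took no part in the ranking, the 26 called genes are given as levels only. Their mean log2 level was 9.32, 7.98, 7.92 and 8.38 in the secondary tumours numbered 29, 64, 66 and 94, which the labels give as transplants except for number 66, tumour tissue from a cell line. It was 7.29, 7.72 and 8.32 in the cell lines numbered 176, 182 and 213, with cell line 179 between the last 2 of these, and 7.64 to 7.79 in the osteoblast cultures. Mki67 itself was 10.08, 9.59, 9.17 and 9.24 on the log2 scale in those secondary tumours, 7.65 to 9.05 in the cell lines and 8.77 to 8.98 in the osteoblast cultures. Secondary tumour 29 thus exceeded every other array for the called genes, the primary tumour of the same number included, while secondary tumour 94 was above the Mki67-low primary tumour of its number (8.38 against 7.64) and secondary tumour 66 below the Mki67-high primary tumour of its number (7.92 against 8.46). Cell line 179 was above the primary tumour of that number and cell line 182 below it (7.72 against 8.21), and these single pairs have no replicate.

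**Figure D5:**
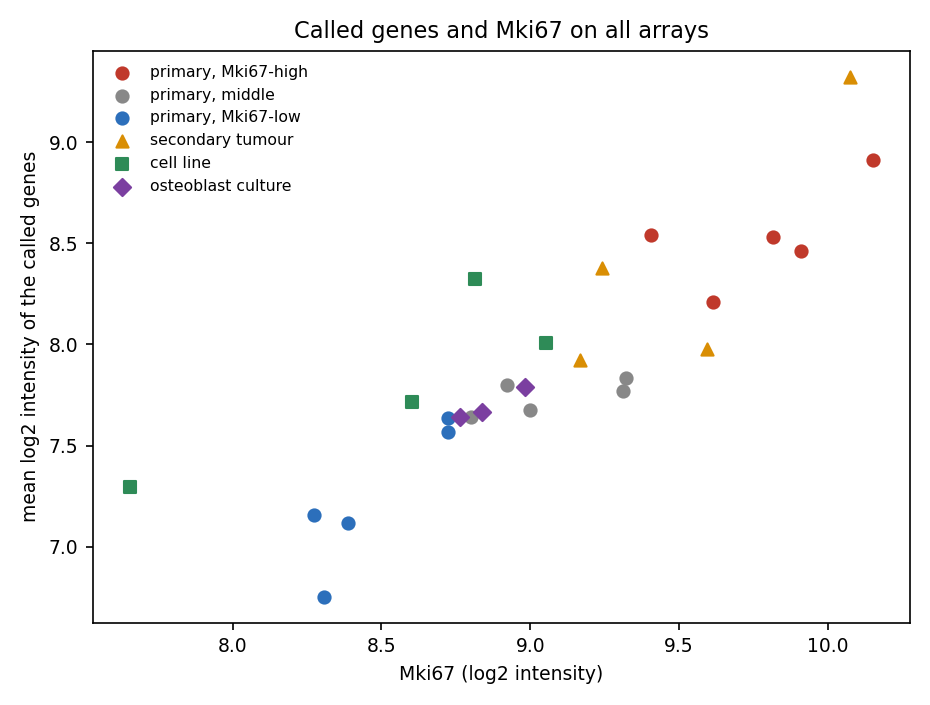
Mean log2 intensity of the 26 called genes (vertical axis) against log2 Mki67 intensity (horizontal axis) on all 26 arrays, with primary tumours as circles coloured by group, secondary tumours as triangles, cell lines as squares and osteoblast cultures as diamonds. Mki67-high tumours lie at 8.21 or above and Mki67-low tumours at 7.64 or below, which the choice of genes fixes, and secondary tumour 29 is the highest array at 9.32.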

How the data were processed

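The authors deposited 1 table of linear intensity values, 1 per probe set and array, for 45101 probe sets, 64 of them controls. Per the labels' protocols, total RNA was copied from its poly(A) tail into cDNA and then by T7 polymerase into biotinylated cRNA for 1-colour arrays. How probes were summarised, background corrected and arrays scaled is not given in the sources used here. As array medians were close, values were used as deposited.

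Probe sets were named from the platform annotation (34958 with 1 symbol, 932 with several, 9211 unnamed here), with symbols updated through a RefSeq table. Intensities below the 20th percentile of all values (12.5) were raised to it. Probe sets above the median of all values (52.6) on at least 3 of the 26 arrays were kept (27308), each gene was represented by its brightest one, and log2 values were taken. Mki67 has 1 named probe set, was used to form the groups and was not tested.

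The 15 primary tumours were fitted with limma 3.58.1 in R 4.3.3 as 3 groups of 5. The contrast was Mki67-high minus Mki67-low, with Benjamini-Hochberg adjustment over 12886 genes, and a gene was called at an adjusted p below 0.05. The middle tumours thus add to the estimate of spread. Errors are limma's moderated SE and its 95% interval, or the SD over 5 tumours. The number of arrays limits the precision. The method was tested on simulated data. The Mki67 groups, the genes and the gene lists were chosen with earlier results of these data known. Genes named were the called ones, the lower genes with the smallest p-values (said not to pass), the 3 smallest p-values of each list, a set of cell cycle and bone genes and those most correlated with Mki67. Of 546 list genes 463 were measured.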

Additional observations from a re-analysis of the deposited data

Results flagged for a closer look

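In each group of 5 tumours, the named genes were searched for a highest or lowest tumour whose gap to its nearest neighbour exceeded 0.71 of the group's range. Of 286 gene and group pairs 23 (8.04%) did so. The rate of about 1 in 20 by chance holds for independent values that were not raised to a floor. Here genes share tumours and some values were at the floor, so these shares cannot be compared. All values are log2 intensities.

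Tumour 330, Mki67-high, stood apart for bone and contractile genes. It had 4.73 for Ibsp (10.56 to 12.51 in the other Mki67-high tumours), 7.42 for Alpl (11.80 to 12.77), 6.86 for Sp7 (9.91 to 10.59) and 3.64, the floor, for Tnfrsf11b (7.53 to 8.79), and it was the highest for Cnn1, a smooth muscle gene, at 7.74 (3.64 to 4.78).

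Tumour 29, Mki67-high, was the highest of its group for Spc24 at 9.21 (8.30 to 8.45 in the others), Mcm2 at 10.55 (9.47 to 9.77), the macrophage gene Cd163 at 6.83 (4.49 to 5.04), the neutrophil gene S100a8 at 8.59 (4.75 to 5.78) and the erythroid gene Alas2 at 10.40 (3.64 to 4.40). Among the other Mki67-high tumours, tumour 182 had the highest Rrm2 at 11.70 and the lowest Vegfa at 7.11, tumour 66 had the highest Hapln1, a cartilage matrix gene, at 9.74, and tumour 353 had the highest Rab20 at 4.28, where the other 4 were at the floor.

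Tumour 188, Mki67-low, had S100a8 at 12.96 (5.27 to 7.29 in the other Mki67-low tumours) and S100a9 at 12.85 (4.30 to 6.51), the highest Sesn2 at 7.53, the lowest Wif1 at 11.76 and Cnn1 at 3.97, where the other 4 were at the floor. Tumour 179, Mki67-low, had the lowest Rfc5 at 8.20, Exo1 at 5.23 and Gm11476 at 6.18, and tumour 94 had the highest Cd8a at 6.89, a gene whose level varied little.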

How the results depend on the processing

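The count of called genes changed with the settings. Over 31 alternative settings, the count of called genes, 26 by the main settings, stayed within 1.5 times of that under other scaling, floors, filters, probe set choices, all 26 arrays, the control-ratio set as a block, the Gapdh 5′ to 3′ ratio as a covariate, a fold minimum of 2 and an adjusted p below 0.1 (18 to 39). Similar counts were not always the same genes. Of the 26 genes, 15 stayed called with the mean of each gene's probe sets and 17 with every kept probe set tested, where the count is of probe sets. With all 26 arrays 18 stayed called, and with the floor at the 40th percentile 25 did. The count was 0 with only the 10 compared arrays, 0 with the 4 highest against the 4 lowest tumours, 0 with the 7 highest against the 7 lowest, 0 within the set of arrays with the high control ratio and 1 within the low-ratio set (limma; 509, 427, 568, 242 and 860 genes in the same order were higher at an unadjusted p below 0.05). The skeletal muscle mean as a covariate gave 7, the macrophage mean 13, Mki67 as a continuous term over all 15 tumours 81, and array weights 74. Leaving out 1 tumour at a time gave 0 to 42. Genes called lower were 0 by the main settings, 3 with all 26 arrays, 8 with array weights, and 0 to 3 when 1 tumour was left out. The causes of these shifts were not tested. All 26 called genes kept an unadjusted p below 0.05 and a positive difference in each setting that measured them (22 of them with the filter at the 75th percentile). They were chosen from these same arrays for their small p-values, so this was largely fixed by that choice and adds no support. For the 143 genes named by the rule, 3609 of 4120 recomputed values kept their direction and their side of the threshold, 383 fell short of it, 28 newly passed it, and 100, in 30 uncalled genes, changed sign. No called gene changed sign, which the separation of the groups fixed wherever only some of the same arrays were fitted. The median difference of the 26, 1.27 by the main settings, was 0.93 per log2 unit of Mki67 with Mki67 as a continuous term, 0.95 with the 7 highest against the 7 lowest, and 1.47 within the low-ratio set. The median of all genes stayed between -0.03 and 0.03.

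No paired analysis was possible because the Mki67-high and Mki67-low tumours share no numbers. Ranking by the mean of several Mki67 probe sets was not run, since 1 is named.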
